A study of Mus musculus with 16 samples.

Results

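The genes described here encode von Willebrand factor (Vwf), the receptors and regulators of coagulation Thbd, Procr, F3 and Tfpi, and the plasminogen activators and their receptor, Plat, Plau and Plaur. They were 8 of 13674 genes named on both chips, and all of the probe sets annotated to them were taken, 12 of 24833. Transcript levels came from endothelial cell lines derived from mouse embryonic stem cells with a homozygous null VE-cadherin gene, and the labels give this origin to all groups, including the cells called VE-cadherin (VEC) positive. The 4 conditions were confluent VEC-positive, sparse VEC-positive, confluent VEC-null and sparse VEC-null cells, all starved for 36 h in albumin-containing medium before lysis. Each condition was 1 cRNA sample hybridised to 2 copies of each of 2 Affymetrix chips, MG_U74Av2 (chip A) and MG_U74Bv2 (chip B), 16 arrays in all. The sources used here do not say how the positive cells came to express VEC, and no independent cultures of either line were sampled on these arrays.

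Endothelium keeps blood fluid while holding the means to stop bleeding. Von Willebrand factor is stored in Weibel-Palade bodies, tethers platelets to the injured wall and carries factor VIII in plasma. Tissue factor, encoded by F3, starts coagulation with factor VII, and tissue factor pathway inhibitor (Tfpi) restrains that step, while thrombomodulin (Thbd) and the endothelial protein C receptor (Procr) turn thrombin toward activation of protein C. Tissue-type (Plat) and urokinase-type (Plau) plasminogen activators cleave plasminogen to plasmin, and the urokinase receptor (Plaur) holds urokinase on the cell surface.

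Sequences upstream of the annotated starts are shown for the members that had one, among them Plaur and Procr, which both fell with confluence in both lines. The RefSeq table of build GRCm38.p6 gave upstream windows of 250 bases for 4 of the 8 members, F3, Plaur, Procr and Tfpi, and Vwf, Thbd, Plat and Plau are named only. Capitals mark matches to the AP-1 motif TGANTCA, the site bound by Fos and Jun proteins, which reads the same on both strands, and the sequences run from 5′ to 3′ on the strand of the gene. The motif was chosen after the values and windows had been seen. F3 lies at chr3:121723287-121723536 (plus strand), Plaur at chr7:24462233-24462482 (plus strand), Procr at chr2:155750967-155751216 (plus strand) and Tfpi at chr2:84476760-84477009 (minus strand).
F3: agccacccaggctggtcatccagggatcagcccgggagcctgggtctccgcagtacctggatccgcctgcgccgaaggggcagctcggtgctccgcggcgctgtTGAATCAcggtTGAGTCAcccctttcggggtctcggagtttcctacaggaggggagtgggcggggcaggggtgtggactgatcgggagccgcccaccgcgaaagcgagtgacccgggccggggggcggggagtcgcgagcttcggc
Plaur: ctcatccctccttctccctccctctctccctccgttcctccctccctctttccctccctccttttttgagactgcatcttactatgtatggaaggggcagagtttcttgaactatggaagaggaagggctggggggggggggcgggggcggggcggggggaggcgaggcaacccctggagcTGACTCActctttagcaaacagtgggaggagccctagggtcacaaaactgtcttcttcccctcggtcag
Procr: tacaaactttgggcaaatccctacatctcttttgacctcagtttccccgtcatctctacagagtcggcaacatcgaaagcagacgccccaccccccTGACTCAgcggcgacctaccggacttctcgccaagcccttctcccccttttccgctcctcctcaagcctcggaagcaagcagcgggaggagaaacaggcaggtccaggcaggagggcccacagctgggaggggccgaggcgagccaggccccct
Tfpi: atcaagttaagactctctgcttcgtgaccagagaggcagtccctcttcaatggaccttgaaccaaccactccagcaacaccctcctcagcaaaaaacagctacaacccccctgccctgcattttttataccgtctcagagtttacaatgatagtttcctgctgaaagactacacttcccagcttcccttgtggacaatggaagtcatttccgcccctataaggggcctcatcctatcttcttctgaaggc

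The F3 window held 2 AP-1 matches, beginning 146 and 135 bases before the annotated start. The Plaur window held 1, beginning 69 bases before the start, and the Procr window held 1, at 154 bases. The windows of both annotated Tfpi starts held 0. Of 32851 upstream windows of this length in the table, 2217 (6.75%) held at least 1 match. Other motifs were also searched on both strands. The GC box (GGGCGG) was held by 32.7% of all windows, the site of GATA factors (GATAA) by 22.6% and the EGR1 motif (GCGNGGGCG) by 4.7%. GC box matches numbered 3 in the F3 window, 3 in the Plaur window, 1 in each Tfpi window and 0 in the Procr window. The site of GATA factors had 1 match, at the second Tfpi start, and the EGR1 motif had 1, for Plaur. A match describes the letters and does not show binding.

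Array copies had a Pearson r of 0.951 to 0.989 over probe sets. Median signals ran from 140.7 to 175.05 for chip A and from 224 to 251.4 for chip B. The confluent VEC-positive arrays stood apart in the Gapdh control, with signals of 12919.5 and 12787.6 on chip A and 29270.3 and 28590.4 on chip B, against 16729.2 to 21421.2 and 36571.7 to 55583.4 on the other arrays. On chip B their 3′/5′ ratio of the Gapdh control was 1.23 and 1.14, and the other chip B arrays had 0.91 to 1.0. The part of these differences in the results below was not tested. Cdh5, which encodes VEC, had signals of 2566.5 ± 58 in confluent VEC-positive, 1399 ± 92 in sparse VEC-positive, 2608 ± 140 in confluent VEC-null and 1268.5 ± 19 in sparse VEC-null cells (SD, n = 2 array copies). The labels do not say which part of Cdh5 was removed, and the signal is therefore no test of them. All 12 endothelial markers measured were kept for testing, and embryonic stem cell markers other than Fgf4 had mean signals of 77.5 or less.

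Values are MAS5 signals, linear intensities scaled by the authors to a target of 500. An offset of 50 was added before taking log2, and changes are log2 differences given with a standard error (SE). A probe set was tested if at least 1 condition had a mean above its chip's median (159.4 for chip A, 235.1 for chip B). Of the member probe sets 8, from 7 genes, met this. It passed at a limma adjusted p below 0.05 and a log2 change of at least 1. Because both copies came from the same cRNA sample, the adjusted p measures hybridisation spread between arrays and not differences between cultures. In RNA from a whole culture, fewer cells expressing a gene and less RNA per cell cannot be told apart.

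**Figure D1:**
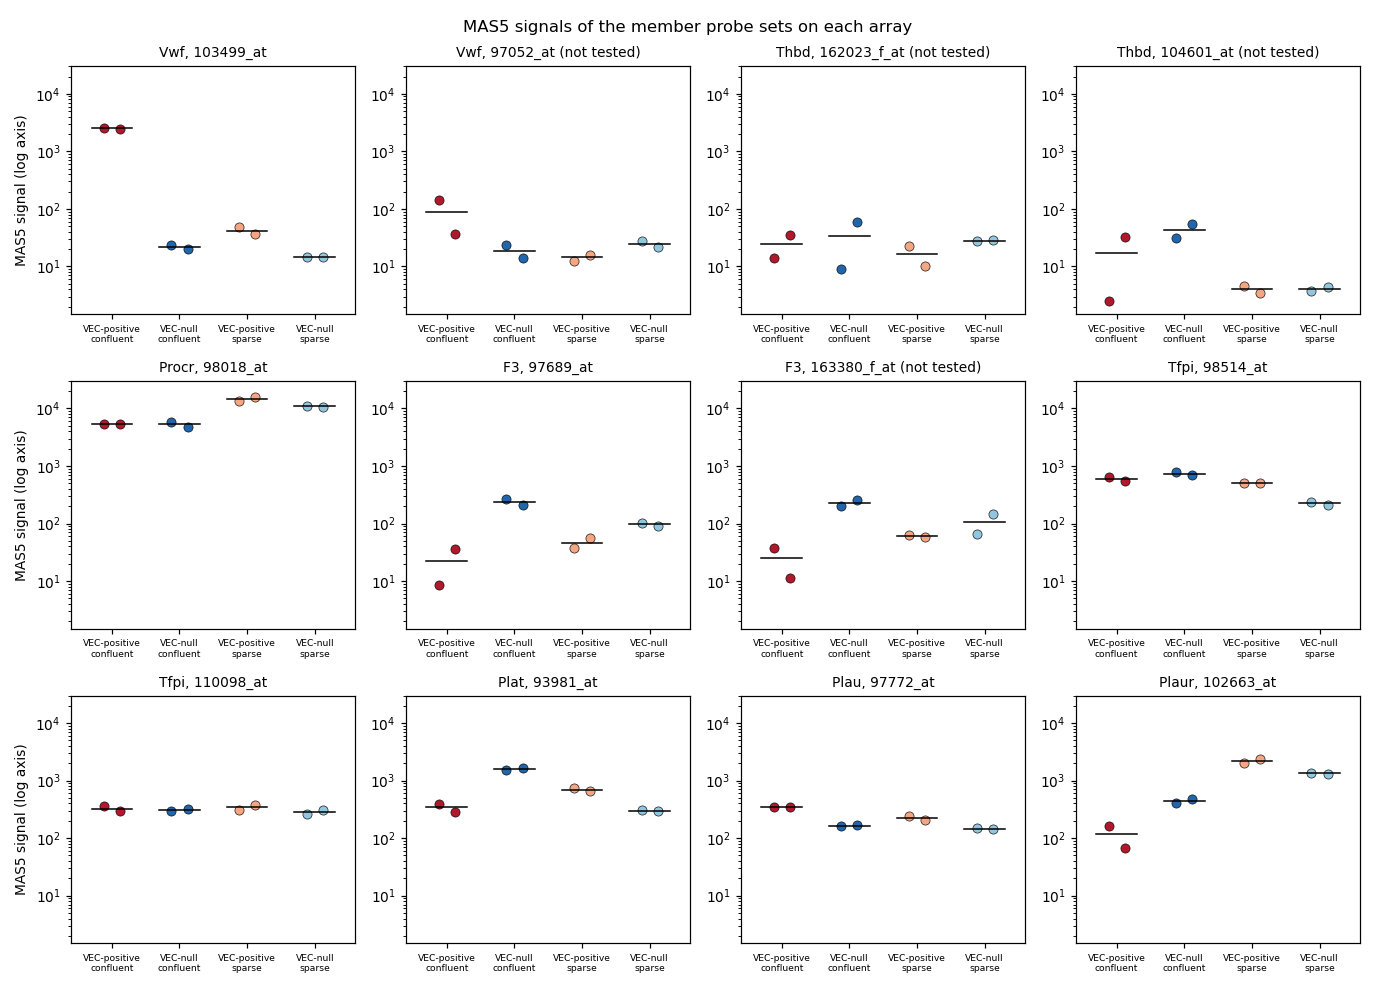
MAS5 signals (log axis) of the 12 member probe sets on each array, by condition; points are array copies (n = 2) and bars their mean. Probe set 103499_at of Vwf stands at 2594.1 and 2438.8 in confluent VEC-positive cells and at 48.2 or below on the other 6 arrays.

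Vwf was high in 1 of the 4 conditions. Its signal on probe set 103499_at was 2594.1 and 2438.8 in confluent VEC-positive cells, against 23.4 and 20.5 in confluent VEC-null cells. In sparse cells it was 48.2 and 36 in the VEC-positive line, against 14.4 and 14.6 in the VEC-null line. Both arrays of confluent VEC-positive cells thus lay far above all others, and the other 3 conditions were all below the level filter. The ratio of mean signals without an offset was 115 between the confluent lines and 59.8 between confluent and sparse VEC-positive cells, and both ratios rest on a dim denominator. With the offset, the log2 change was 5.16 between the confluent lines (SE 0.16, limma adjusted p 9.4e-08) and 4.80 between the densities of VEC-positive cells (SE 0.16, limma adjusted p 2.8e-08). Density gave 0.16 in VEC-null cells (SE 0.16, limma adjusted p 0.46), and the difference of the density effects was 4.65 (SE 0.23, limma adjusted p 6.9e-06).

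In sparse cells Vwf differed between the lines by 0.51 on the log2 scale (SE 0.16, limma adjusted p 0.031), which is under the size threshold. With an offset of 10 it was 1.08 and passed. The other Vwf probe set, 97052_at, was too dim to be tested, at 140.4 and 36.2 in confluent VEC-positive and 23.4 and 14 in confluent VEC-null cells, and at 12.7 to 27.6 in both sparse conditions. Its highest arrays were again those of confluent VEC-positive cells, but the lower of these copies lay close to the other conditions. Without the filter its change between the confluent lines was 0.90 (limma adjusted p 0.092).

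Vwf is also made by megakaryocytes, so their markers are given beside it. Of 9 megakaryocyte and platelet markers 6 were on the chips, 2 were tested and 0 passed in any comparison. Of all tested probe sets 7.93% to 16.5% passed per comparison, so a count of 0 among 2 says little. The summed signal of the 6 markers was 537 to 897 in confluent VEC-positive and 505 to 523 in sparse VEC-positive cells. It was 473 to 486 in confluent VEC-null and 428 to 595 in sparse VEC-null cells. Pf4, Ppbp, Gp1bb and Gp5 had mean signals of 68.7 or less in all 4 conditions. Gp9 was highest in confluent VEC-positive cells, at 208 ± 26 against 85.75 ± 8.7 in confluent VEC-null cells. Its log2 difference was 0.92 (SE 0.17, limma adjusted p 0.0030), which did not reach the size threshold. Treml1, the other tested marker, also had its highest mean there, at 392 ± 263 against 238.5 ± 45 in confluent VEC-null cells. Its copies differed widely, and its log2 difference was 0.48 (SE 0.37, limma adjusted p 0.35).

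Procr was lower at confluence in both lines. Signals of the endothelial protein C receptor were 5408.7 and 5332 in confluent against 13615.2 and 15799.9 in sparse VEC-positive cells. In VEC-null cells they were 5867.9 and 4822.4 when confluent, against 10858.9 and 10747 when sparse. The densities did not overlap in either line, and at confluence the lines lay together. The log2 change with density was -1.44 in VEC-positive cells (SE 0.10, limma adjusted p 2.9e-06) and -1.02 in VEC-null cells (SE 0.10, limma adjusted p 2.9e-05). The lines differed by 0.01 when confluent (SE 0.10, limma adjusted p 0.93) and by 0.44 when sparse (SE 0.10, limma adjusted p 0.0074), and the difference of the density effects was -0.43 (SE 0.14, limma adjusted p 0.052). The change in VEC-null cells lay close to the size threshold and fell below it with quantile normalisation (-0.94), with an offset of 200 (-0.995), less the median of chromosome 2 (-0.99) and without the second confluent VEC-null copy (-0.87).

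Thbd, the thrombin receptor that works with Procr in protein C activation, stayed dim on both of its probe sets. Probe set 104601_at read 2.5 and 32.5 in confluent VEC-positive, 4.6 and 3.4 in sparse VEC-positive, 31.3 and 54.4 in confluent VEC-null and 3.8 and 4.4 in sparse VEC-null cells. Probe set 162023_f_at read 13.9 and 35.4, 22.6 and 10.1, 9 and 58.2, and 27.7 and 28.6 in the same order of conditions. Neither was tested, and without the filter neither passed in any of 5 comparisons. The lowest adjusted p was that of 104601_at with density in VEC-null cells, where the copies did not overlap (log2 0.77, SE 0.21, limma adjusted p 0.027), under the size threshold. The other Thbd probe set gave 0.03 there.

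F3, the initiator of coagulation, was highest in confluent VEC-null cells. Probe set 97689_at read 8.5 and 36.1 in confluent VEC-positive cells, against 266.8 and 209.8 in confluent VEC-null cells. In sparse cells it read 37.7 and 55.5 in the VEC-positive line and 102.1 and 90.4 in the VEC-null line. The lines did not overlap at either density, and only confluent VEC-null cells exceeded the level filter. The log2 change between the lines was -2.02 when confluent (SE 0.23, limma adjusted p 0.00018) and -0.60 when sparse (SE 0.23, limma adjusted p 0.067). Density gave -0.44 in VEC-positive cells (limma adjusted p 0.15) and 0.97 in VEC-null cells (limma adjusted p 0.0068), neither of which passed, and these differed by -1.41 (SE 0.33, limma adjusted p 0.011). The value in VEC-null cells passed with an offset of 10 (1.22), less the median of chromosome 3 (1.08), without the second confluent VEC-null copy (1.12) and without the first sparse VEC-null copy (1.03).

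The second F3 probe set lies on chip B, so its arrays are separate hybridisations of the same cRNA samples. Probe set 163380_f_at read 38.1 and 11.4 in confluent VEC-positive and 200.4 and 257 in confluent VEC-null cells. It read 62.1 and 58.4 in sparse VEC-positive and 65.6 and 146.9 in sparse VEC-null cells. The order of the 4 condition means was the same as on chip A. It missed the level filter, and without that filter its change between the confluent lines was -1.91 (SE 0.35, limma adjusted p 0.0052). With an offset of 200 the change of 97689_at between the confluent lines was -0.98, just under the size threshold.

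Tfpi, the inhibitor of the tissue factor step, was lowest in sparse VEC-null cells on its chip A probe set. Probe set 98514_at read 647.4 and 537.7 in confluent VEC-positive, 504.1 and 511.3 in sparse VEC-positive, 783.2 and 696.8 in confluent VEC-null and 239.7 and 212.7 in sparse VEC-null cells. Sparse VEC-null cells stood below all other arrays, and the remaining conditions differed little beside them. The log2 change with density was 0.20 in VEC-positive cells (SE 0.13, limma adjusted p 0.24) and 1.52 in VEC-null cells (SE 0.13, limma adjusted p 1.0e-05), with a difference of -1.32 (SE 0.19, limma adjusted p 0.00079). Between the lines it was -0.30 when confluent (SE 0.13, limma adjusted p 0.11) and 1.02 when sparse (SE 0.13, limma adjusted p 0.00026).

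The chip B probe set of Tfpi did not show this. Probe set 110098_at read 359.1 and 293.6 in confluent VEC-positive, 314.1 and 372.4 in sparse VEC-positive, 301.4 and 321.7 in confluent VEC-null and 262.5 and 313.7 in sparse VEC-null cells. Its conditions overlapped, and its log2 changes were -0.17 to 0.22 in the 5 comparisons (lowest limma adjusted p 0.44). The Tfpi pattern therefore rests on 1 of 2 probe sets, and which of them follows the transcript was not tested.

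Plat, the tissue-type plasminogen activator, rose with confluence in VEC-null cells, and its density effect differed between the lines. Its signal was 394.6 and 288.1 in confluent against 737.1 and 648.8 in sparse VEC-positive cells. In VEC-null cells it was 1541.6 and 1671.7 when confluent, against 304.9 and 297.8 when sparse. The highest arrays were those of confluent VEC-null cells, and confluent VEC-positive arrays overlapped the sparse VEC-null ones. The log2 change with density was -0.94 in VEC-positive cells (SE 0.14, limma adjusted p 0.00052), under the size threshold, and 2.24 in VEC-null cells (SE 0.14, limma adjusted p 1.4e-06). These differed by -3.17 (SE 0.20, limma adjusted p 1.7e-05). The value in VEC-positive cells passed with an offset of 10 (-1.01), quantile normalisation (-1.05), median centring (-1.13), less the chromosome median (-1.03), without the first confluent VEC-positive copy (-1.13) and without the second sparse one (-1.02).

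The Plat difference between the lines passed with opposite signs at the 2 densities. It was -2.09 when confluent (SE 0.14, 4.27-fold lower in VEC-positive cells, limma adjusted p 8.3e-06) and 1.08 when sparse (SE 0.14, 2.11-fold higher in VEC-positive cells, limma adjusted p 0.00032). Plat lies on chromosome 8, whose genes had a median difference between the lines of 0.29 when confluent and 0.22 when sparse. Less that median the sparse difference was 0.85 and the confluent one -2.38. The sparse calls of Plat and Tfpi were the only ones among the members in that comparison, and both lay at the size threshold. Without the first sparse VEC-positive copy Plat was at 0.99, and without the second sparse VEC-null copy Tfpi was at 0.94, so that 1 call was left in each case.

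Plau, the urokinase gene, passed in 0 of 5 comparisons, although 3 had a limma adjusted p below 0.05. Its signal was 348.3 and 350.2 in confluent and 245.5 and 205.1 in sparse VEC-positive cells, against 160.2 and 167.4 in confluent and 148.8 and 142.8 in sparse VEC-null cells. Every VEC-positive array lay above every VEC-null array. The difference between the lines was 0.90 when confluent (SE 0.14, limma adjusted p 0.0012) and 0.49 when sparse (SE 0.14, limma adjusted p 0.024). It exceeded the size threshold when confluent with an offset of 10 (1.05). Plau lies on chromosome 14, whose genes had medians of 0.22 and 0.24 in these comparisons.

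Plaur, the urokinase receptor, was lower at confluence in both lines and more so in VEC-positive cells. Its signal was 165.8 and 66.2 in confluent against 1988.1 and 2333.7 in sparse VEC-positive cells. In VEC-null cells it was 408.9 and 470.4 when confluent, against 1343.6 and 1318.3 when sparse. All sparse arrays lay above all confluent ones, and confluent VEC-positive cells were lowest, with the widest ratio between copies. The log2 change with density was -3.80 in VEC-positive cells (SE 0.24, 13.9-fold lower when confluent, limma adjusted p 1.2e-06) and -1.499 in VEC-null cells (SE 0.24, 2.83-fold lower, limma adjusted p 0.00055). The difference of these was -2.30 (SE 0.33, limma adjusted p 0.00094). Between the lines Plaur was at -1.63 when confluent (SE 0.24, limma adjusted p 0.00067) and 0.67 when sparse (SE 0.24, limma adjusted p 0.046), the second under the size threshold.

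**Figure D2:**
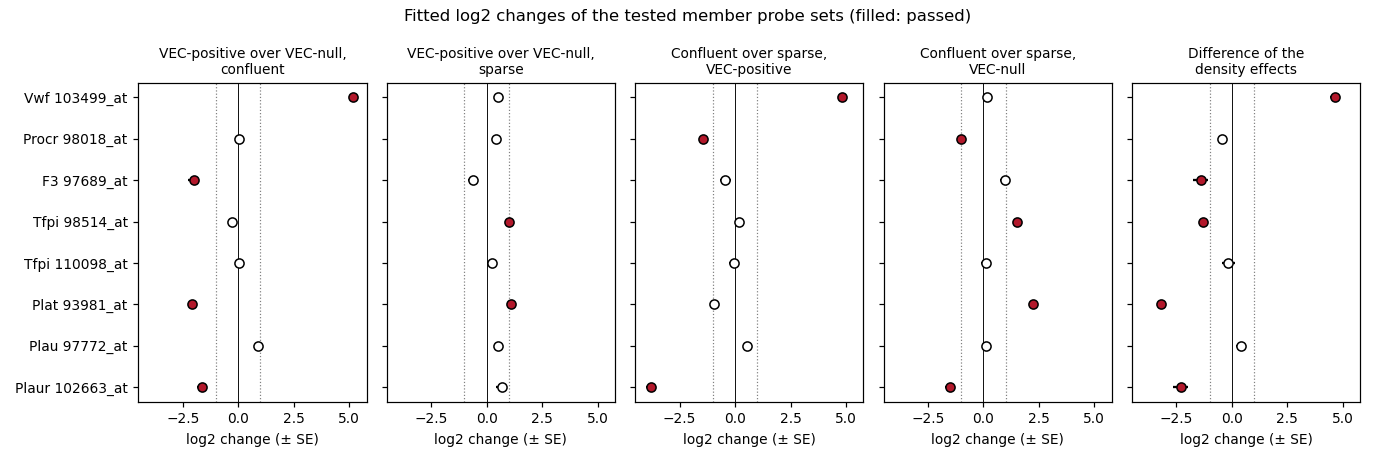
Log2 changes (bars are ± SE) of the 8 tested member probe sets in 5 comparisons; filled points passed and dotted lines mark a log2 change of 1. Vwf stands at 5.16 between the confluent lines, and Plat lies at -2.09 when confluent and 1.08 when sparse.

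Counted over the 8 tested probe sets, 1 rose and 3 fell in confluent VEC-positive against confluent VEC-null cells. Over all 14246 tested probe sets 4.31% rose and 3.62% fell there, 7.93% together. In sparse VEC-positive against sparse VEC-null cells 2 rose and 0 fell, beside 5.43% and 4.27% of all (9.7% together). Confluent against sparse VEC-positive cells gave 1 rise and 2 falls, beside 8.16% and 7.22% of all (15.4% together). Confluent against sparse VEC-null cells gave 2 rises and 2 falls, beside 9.1% and 7.41% of all (16.5% together). The difference of the density effects passed for 5, of which 1 was positive and 4 were negative, beside 5.91% and 6.34% of all (12.2% together). Vwf and F3 entered these counts only through the condition in which they were highest, so their passing follows in part from the filter. The median log2 value over the 7 tested genes was -0.30, 0.51, -0.44, 0.16 and -1.32 in these 5 comparisons, beside -0.03, -0.03, 0.02, 0.00 and 0.01 over all tested probe sets. The comparisons share conditions, so that these counts are not independent of one another.

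With the copies averaged and the 4 cRNA samples as units, an additive fit of VEC and density had 1 residual degree of freedom per chip. In that fit 0 of the 8 member probe sets passed for VEC, where 2.04% of all did, and 2 passed for density, where 9.83% did. The density term was -2.65 for Plaur (SE 0.47, limma adjusted p 0.0074) and -1.23 for Procr (SE 0.30, limma adjusted p 0.030). The VEC term of Vwf was 2.83 (SE 0.85, limma adjusted p 0.17) and that of F3 was -1.31 (SE 0.47, limma adjusted p 0.27), at unadjusted p of 0.0087 and 0.022. The VEC term of Plau was 0.69 (SE 0.29, limma adjusted p 0.35, unadjusted p 0.040). The share of all probe sets at such unadjusted p was not counted, so these values are not calls. This fit divides a response to VEC at 1 density only among the VEC term, the density term and the residual spread.

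Other genes of hemostasis were described from lists written with earlier results of these data known. Among 13 genes for storage and secretion of von Willebrand factor, 10 were tested. In confluent VEC-positive against confluent VEC-null cells 2 of them rose and 0 fell, where 4.31% and 3.62% of all tested probe sets did (median log2 change -0.07, beside -0.03 over all). The 2 were Rab27a, a small GTPase of Weibel-Palade bodies, at 1318 ± 80 against 484.6 ± 19 (log2 1.35, SE 0.20), and Edn1, the precursor of endothelin 1, at 211.7 ± 17 against 43.7 ± 17 (log2 1.49, SE 0.16). The second Edn1 probe set gave 0.45. For Stxbp5, another gene of the list, the second probe set gave 1.03 there, where its representative gave 0.18. With density in VEC-positive cells these 2 probe sets gave 1.24 and -0.01. With density, Rab27a rose in both lines (2.31 in VEC-positive and 1.04 in VEC-null cells) and Edn1 fell in both (-1.89 and -2.87). Ece1, encoding an enzyme that activates endothelin, rose in VEC-null cells (1.34, and 1.25 on its second probe set).

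Selp and Angpt2, whose products are stored beside von Willebrand factor, were highest in other conditions than Vwf. P-selectin, encoded by Selp, was at 913.65 ± 54 in confluent and 454.5 ± 86 in sparse VEC-positive cells, against 1728 ± 28 in confluent and 190.4 ± 38 in sparse VEC-null cells. Its density effect was 0.94 in VEC-positive cells, under the size threshold, and 2.90 in VEC-null cells. Angpt2, encoding angiopoietin 2, fell at confluence in VEC-positive cells (-1.44, SE 0.23) and was at 0.05 in VEC-null cells.

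Coagulation factors and cofactors were mostly dim, with 6 of 18 genes tested. F8 was the only 1 of the 6 whose representative probe set passed in any comparison, where 7.93% to 16.5% of all tested probe sets passed per comparison. The list's medians were -0.28 to 0.32, beside -0.03 to 0.02 over all tested probe sets. The second probe set of Lman1, a cargo receptor for factor VIII, gave -1.07 with density in VEC-positive cells, where its representative gave -0.05. Factor VIII circulates bound to von Willebrand factor, and F8 was at 3665 ± 450 in confluent and 184.5 ± 8.9 in sparse VEC-positive cells, against 1465 ± 48 in confluent and 223.8 ± 12 in sparse VEC-null cells. It rose with confluence in both lines, by 3.98 in VEC-positive (SE 0.12, limma adjusted p 1.4e-08) and 2.47 in VEC-null cells (SE 0.12, limma adjusted p 1.9e-07). Between the confluent lines it rose by 1.29 (limma adjusted p 4.3e-05).

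The anticoagulant list had 5 of 12 genes tested, and Pros1, encoding the protein C cofactor protein S, was the only 1 to pass. Of all tested probe sets 7.93% to 16.5% passed per comparison. The list medians were -0.39 to 0.01, beside -0.03 to 0.02 over all tested probe sets. Pros1 rose with confluence by 1.56 in VEC-positive and 2.13 in VEC-null cells, and in sparse VEC-positive over sparse VEC-null cells by 1.27. Both tested protease-activated receptors rose with confluence in VEC-positive cells, F2rl3 by 3.16 (8.94-fold) and the thrombin receptor F2r by 1.15 (2.22-fold), where 8.16% of all tested probe sets rose. In VEC-null cells F2rl3 rose by 2.64, and F2r was at 0.60 on its representative probe set and at 1.38 and 1.02 on its others.

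Of 12 fibrinolysis genes 5 were tested. In confluent against sparse VEC-positive cells 3 fell, Lrp1 (-2.53), a clearance receptor for plasminogen activator complexes, and S100a10 (-1.79) and Anxa2 (-1.16), which form the annexin 2 complex that binds plasminogen and tissue-type activator, where 7.22% of all tested probe sets fell. The second S100a10 probe set gave -0.52 there. The list's median was -1.16 in VEC-positive and 0.08 in VEC-null cells, beside 0.02 and 0.00 over all tested probe sets. In VEC-null cells 0 fell, where 7.41% of all tested probe sets did. There S100a10 (-0.55, limma adjusted p 0.0017) and Anxa2 (-0.54, limma adjusted p 0.00011) were lower at confluence, under the size threshold. The second S100a10 probe set gave -0.22. Plgrkt, a plasminogen receptor, rose by 1.29 in VEC-null cells, where 9.1% of all tested probe sets rose. Lrp1 was at 341.6 ± 44 in confluent and 2205 ± 46 in sparse VEC-positive cells, against 316.8 ± 2 in confluent and 245 ± 12 in sparse VEC-null cells. The difference of the density effects was -2.84 for Lrp1 (SE 0.17, limma adjusted p 1.3e-05) and -1.24 for S100a10 (SE 0.15, limma adjusted p 0.00033). It was -0.31 on the second S100a10 probe set.

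**Figure D3:**
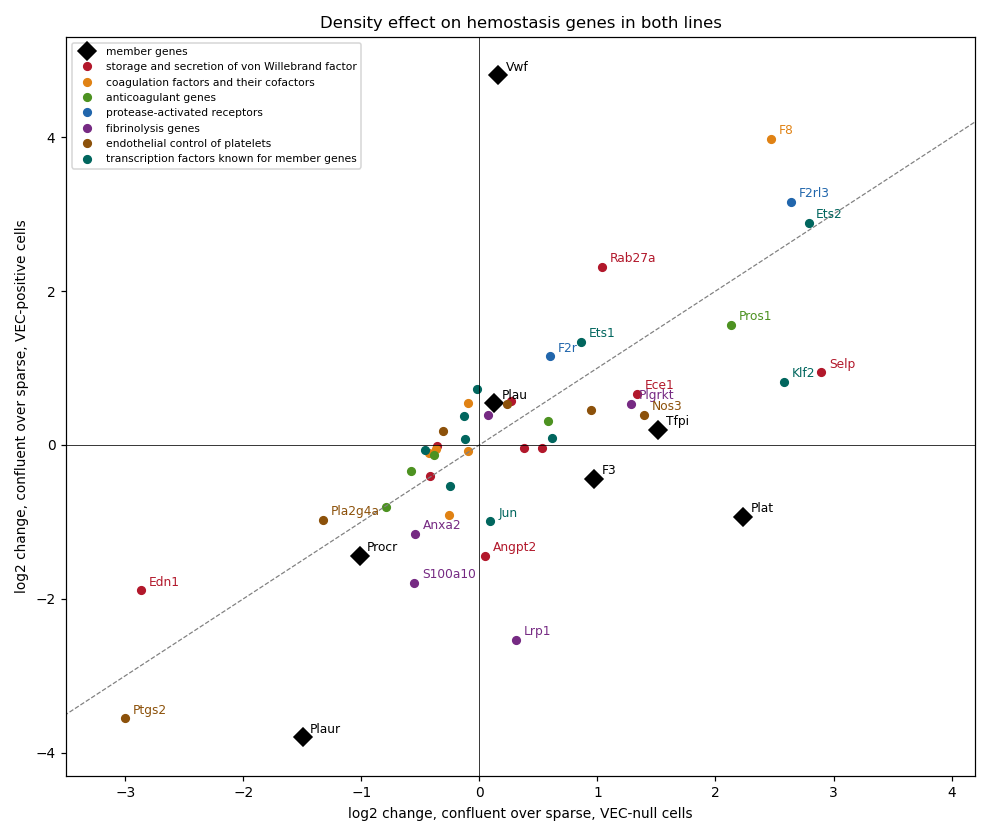
Log2 change with density (confluent over sparse) in VEC-positive cells on the vertical axis and in VEC-null cells on the horizontal axis, for tested genes of the 7 lists and the member genes (diamonds); the dashed line marks equal change. Vwf lies at 4.80 and 0.16, while Plat lies at -0.94 and 2.24.

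Markers of other cells moved with some of these conditions. The 7 epithelial and mesothelial markers had a summed signal of 4575 to 4963 in sparse VEC-positive cells, against 622 to 696 in confluent VEC-positive, 633 to 804 in confluent VEC-null and 1027 to 1107 in sparse VEC-null cells. Msln and Krt19 made up most of it, while Epcam stayed at 19.8 or less, and the condition is the one in which Plaur, Procr and Lrp1 were highest. The 6 blood cell markers summed to 1382 to 1697 in confluent VEC-null cells, where F3 and Plat were highest, against 776 to 1046 in the other 3 conditions. There Cd68 was at 910 ± 231, against 273 to 353 in the other conditions, and Ptprc at 11.25. Csf1r was highest in confluent VEC-positive cells (351, against 236 in confluent VEC-null cells). Cd14 was highest in sparse VEC-positive cells (393, against 322 in confluent VEC-null cells). Adgre1 and Lyz2 stayed at 33.65 or less. The 8 smooth muscle and fibroblast markers were lowest in confluent VEC-positive cells (617 to 630, against 928 to 1307). Among them Pdgfrb was at 327.65 ± 23 in confluent VEC-null cells, where F3 and Plat were highest, and at 9.5 to 13 in the other conditions. With density in VEC-null cells Pdgfrb was the only 1 of 4 tested to rise, where 9.1% of all tested probe sets did. Acta2 and Tagln fell, where 7.41% of all did. Pdgfrb and Acta2 each met the level filter only through the condition in which they were highest, so their passing follows in part from the filter. Acta2 was at 122.6 ± 3.5 in confluent and 371 ± 19 in sparse VEC-null cells, and Tagln at 44 ± 28 and 151 ± 12. The 12 endothelial markers summed to 50707 to 51624 in confluent and 26274 to 29060 in sparse VEC-positive cells, against 59509 to 59917 in confluent and 16662 to 16789 in sparse VEC-null cells. The sums join probe sets of both chips, and the part of these cells in the results was not tested.

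The genes with profiles nearest to each member were found by the root mean square (RMS) difference of the 4 condition means on the log2 scale, each profile less its own mean. For Vwf they were Lamb3 (RMS 0.44), Cldn5 (0.47), Rgs2 (0.63), Ptprv (0.79) and Bgn (0.80), out of 12960 probe sets compared. Lamb3 encodes a laminin chain, Cldn5 the endothelial claudin, Rgs2 a regulator of G protein signalling and Bgn the proteoglycan biglycan. Cldn5 had a mean signal of 5115 in confluent VEC-positive and 11.9 to 50.5 in the other conditions, and Rgs2 was at 3722 and 121.1 to 319.2.

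For Plaur the nearest were Idi1 (RMS 0.06), Lss (0.20) and Fdps (0.23), which all encode enzymes of sterol synthesis. Idi1 was at 309.85 in confluent and 5014 in sparse VEC-positive cells, against 1153 in confluent and 3427 in sparse VEC-null cells. For F3 they were Rnf144a (0.10), Srebf1 (0.11) and Tlr13 (0.11), and for Plat they were Cd53 (0.23), Acyp1 (0.28) and Wnk1 (0.31). Procr was nearest to Hspa4l (0.03), Tfpi to Tmem150a (0.05) and Plau to Gucd1 (0.03). With 4 conditions, many genes share a shape, and likeness here is a description.

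**Figure D4:**
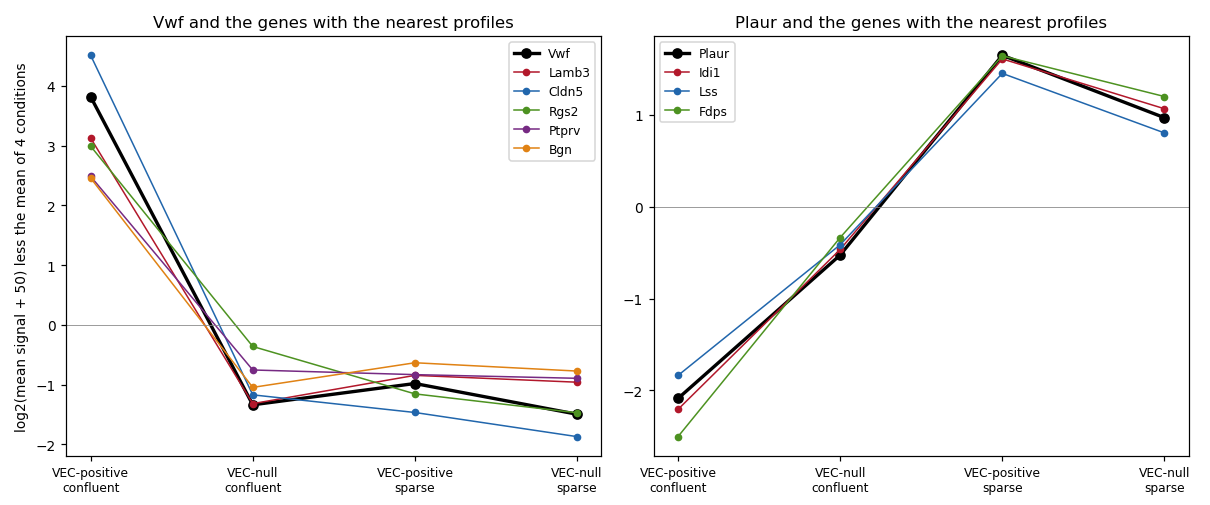
Profiles of Vwf and Plaur (black) and of the genes with the smallest RMS difference, as log2 of the mean signal plus 50 less the mean of the 4 conditions, by condition. The Vwf group is high in confluent VEC-positive cells, and the Plaur group is lowest there and highest in sparse VEC-positive cells.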

How the data were processed

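Per the labels, the authors computed MAS5 signals and scaled each array to a target of 500, and the deposited values are linear intensities. Labelling started from 15 µg of total RNA. A further median normalisation across samples is named in the design text, while array medians in the deposited tables still differ. The tables carry no detection calls and no probe-level values, so background correction is that of MAS5. Both tables were used whole, with 0 columns of other samples. Symbols came from the GEO platform annotation (21414 probe sets with 1 symbol, 574 with several, 2845 with none) and were matched by Entrez identifier to the RefSeq table of GRCm38.p6 (21411 matched, 0 changed). The 132 control probe sets were left out.

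Log2(signal + 50) was fitted by limma 3.58.1 (R 4.3.3), each chip on its own and with a mean-variance trend (4 residual degrees of freedom per chip). P values were adjusted by Benjamini-Hochberg over both chips together (14246 probe sets). Copies are technical, so p values cover hybridisation only. Copy numbers did not pair the arrays (correlations of deviations -0.06 to 0.08). On simulated data for confluent lines, 90.8% of probe sets changed by 1.5 on the log2 scale were recovered and 0.054% of unchanged ones were called. The simulated noise followed the spread between array copies, and changes were placed only in probe sets above the median signal. These rates therefore do not cover differences between cultures or dim probe sets.

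A gene was represented by a tested probe set where it had any, preferring chip A and then the highest mean signal. All member probe sets are given, and from each list up to 4 genes per comparison that passed with the largest change, with genes acting directly on a member. Members and lists were chosen with earlier results of these data known. The number of arrays limits the precision. Alternatives were other offsets, filters, normalisations and size thresholds, no variance trend, a block, left-out copies and chromosome medians.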

Additional observations from a re-analysis of the deposited data

Results flagged for a closer look

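The density effect (confluent over sparse, VEC-positive less VEC-null cells) differed between the lines for 5 of the 8 tested member probe sets. This is the interaction term of the limma fit, and it passed for 12.2% of all tested probe sets. Vwf and F3 met the level filter only through the condition in which they were highest. The difference on the log2 scale was 4.65 for Vwf (103499_at), -1.41 for F3 (97689_at), -1.32 for Tfpi (98514_at), -3.17 for Plat (93981_at) and -2.30 for Plaur (102663_at). The chip B probe set of Tfpi gave -0.17, and that of F3, not tested, gave -1.46.

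Among the other hemostasis genes named, the same term passed for Rab27a (1.28), Selp (-1.95), Angpt2 (-1.49), F8 (1.51), Lrp1 (-2.84), S100a10 (-1.24), Nos3 (-1.01), Klf2 (-1.76) and Jun (-1.09). The second S100a10 probe set gave -0.31. The genes searched were those that had passed in some comparison, so their number is not a share of the lists. Each value compares 4 cRNA samples, 1 per condition.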

How the results depend on the processing

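Of 745 member values under alternatives, 700 kept direction and side of the threshold, 24 newly passed, 12 no longer passed and 9 changed sign. Many of the 745 could not change direction. The filters, the variance trend, the block and the size thresholds leave a log2 value as it is. So does leaving out a copy of a condition outside the comparison. The count of 700 is therefore no measure of robustness. No value that passed changed sign. The sign changes were those of Procr between the confluent lines with a copy left out (-0.13 to 0.15), Plau with density in VEC-null cells under quantile normalisation (-0.024) and median centring (-0.018), and Tfpi 110098_at. With a copy left out that probe set gave -0.073 to 0.18 between the confluent lines, -0.19 to 0.061 with density in VEC-positive cells and -0.0091 to 0.21 with density in VEC-null cells. In VEC-positive cells it gave 0.016 under quantile normalisation and 0.039 under median centring. The counts of member probe sets that passed between the sparse lines (2) were 0 with an offset of 200, 6 with no size threshold, 1 less the chromosome median and 1 to 2 with a copy left out. With density in VEC-positive cells the count (3) was 5 with no size threshold, and for the difference of the density effects (5) it was 3 with an offset of 200. Leaving out a copy gave 4 to 5, 3 to 4, 4 to 5 and 5 to 5 members in the comparisons of the confluent lines, of density in VEC-positive and VEC-null cells, and of their difference.

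Over all probe sets, the counts for the confluent lines (1129), sparse lines (1382), density in VEC-positive cells (2190), density in VEC-null cells (2352) and their difference (1745) were 590, 689, 1305, 1444 and 1017 with an offset of 200. They were 3009, 3699, 4777, 4827 and 3572 at a size of 0.58, and 4706, 5537, 6791, 6664 and 4080 with none. The filter at the 75th percentile gave 691 and 913 for the lines. With a copy left out they were 1092 to 1205, 1370 to 1521, 2178 to 2311, 2330 to 2404 and 1629 to 1798. The replicate block gave 1131, 1383, 2192, 2357 and 1742 and changed no member call. By Pearson correlation in place of RMS, the nearest genes were others except Hspa4l for Procr, Iqsec1 for Tfpi and Lss for Plaur. The cause of these changes was not tested. Signal over background could not be judged without detection calls, which limits Thbd, F3 and the low side of Vwf.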

Other observations

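Of 9 genes by which endothelium acts on platelets, 6 were tested. Entpd1, encoding the ecto-enzyme that degrades ADP, was at 25.2 ± 15 in confluent and 4.3 ± 0.14 in sparse VEC-positive cells, against 480 ± 71 in confluent and 224.2 ± 20 in sparse VEC-null cells (SD, n = 2 array copies). It fell in VEC-positive cells at both densities (log2 -2.83 when confluent and -2.33 when sparse). Ptgs2, the inducible cyclooxygenase, fell with confluence in both lines (log2 -3.56 in VEC-positive and -3.00 in VEC-null cells). Nos3, the endothelial nitric oxide synthase, rose with confluence in VEC-null cells (1.40) and was at 0.39 in VEC-positive cells. Pla2g4a, encoding a phospholipase that releases arachidonic acid, fell with confluence in VEC-null cells (log2 -1.32) and was at -0.97 in VEC-positive cells.

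Of the transcription factors known for member genes, 10 of 13 were tested. Ets2 rose with confluence in both lines, at 4918 ± 148 in confluent and 622.9 ± 30 in sparse VEC-positive cells (log2 2.88), against 7373 ± 972 in confluent and 1019.7 ± 10 in sparse VEC-null cells (log2 2.79). Its second probe set gave 2.07 and 1.90. Ets1 rose with confluence in VEC-positive cells (1.34), but its other probe sets gave 0.68 and 0.19. In VEC-null cells the representative Ets1 probe set gave 0.86 with density, and the others gave 1.79 and 1.54. The difference of the density effects was 0.48 on the representative and -1.11 and -1.35 on the others, so the Ets1 probe sets disagree. Klf2, a regulator of Thbd, rose with confluence in VEC-null cells (2.58) and was at 0.82 in VEC-positive cells. With density in VEC-null cells Thbd probe set 104601_at gave 0.77 and 162023_f_at gave 0.03, both at dim signals that missed the level filter. Klf4 rose in VEC-positive cells at both densities (1.16 when confluent and 1.43 when sparse). Gata2, a regulator of Vwf, was at 768 ± 63 in confluent VEC-positive against 1037 ± 169 in confluent VEC-null cells and passed in 0 of the 5 comparisons. Jun was at 413.3 ± 75 in confluent and 865.4 ± 14 in sparse VEC-positive cells, against 680 ± 21 in confluent and 635 ± 59 in sparse VEC-null cells. Egr1 passed in 0 of the 5 comparisons, with log2 values between -0.48 and 0.51.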
